A study of Homo sapiens with 95 samples.

Results

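The genes described here are those of sterol and fatty acid synthesis, measured in AALE cells, an immortalized human bronchial epithelial line, under tobacco-related chemicals. They were chosen by name from a list of 36 symbols, of which 34 were listed in the count tables. The list was chosen with earlier results of these data known. The share of members called, set beside that of all genes, is therefore a description and no test of the list. The other two, SC4MOL and SC5DL, are older names of MSMO1 and SC5D, which were listed. A member was then selected on its mean count, which had to exceed 1 over the 82 wells used, and all 34 passed. The tables list 23895 genes, of which 11356 passed the same minimum. SREBF2 lay just above it at a mean count of 1.06, PMVK followed at 2.59, and no listed member lay below it. Over all 95 wells SREBF2 averaged exactly 1 count and 33 members would remain. The members comprised 18 enzymes of the sterol pathway, 6 genes that regulate or carry sterols, and 10 enzymes that make or modify fatty acids.

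Cells make cholesterol from acetyl-CoA through mevalonate, isoprenoid diphosphates, squalene and lanosterol, and many of the enzymes lie at the endoplasmic reticulum. When sterols in that membrane fall, the carrier SCAP takes the SREBP transcription factors, encoded by SREBF1 and SREBF2, to the Golgi, where they are cut and released to act in the nucleus on genes of both pathways. INSIG1 holds SCAP back when sterols are plentiful, and the liver X receptors respond to excess sterol by raising efflux transporters. Airway epithelial cells use sterols and unsaturated fatty acids in their membranes and secreted lipids.

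Expression was measured by 3′ digital gene expression (3′DGE), which counts unique molecular identifiers (UMIs) at the 3′ ends of polyadenylated transcripts, so that a count does not grow with transcript length. Every well held AALE cells with a construct. Cells overexpressing NRF2 (gene NFE2L2), FGFR1, NRG1 or PIK3CA had an empty vector with the reporter HcRed (HCRED) as their control, and cells with a CRISPR knockout of FAT1 or CDKN2A had cells transfected with Cas9 and GFP without a guide (GFP). Each population was given the vehicle DMSO, cigarette smoke condensate (CSC) at 24 µg/ml, the polycyclic hydrocarbon benzo[a]pyrene (BaP) at 173 µM, or the tobacco nitrosamine NNK at 490 µM. The duration of exposure and the number of clones behind each population are not given in the sources used here. The chemicals were thus compared at 1 dose each, and the doses differ.

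The main comparisons used the 82 wells with replicate numbers of 1 digit, 24 under DMSO, 17 under CSC, 19 under BaP and 22 under NNK. The other 13 wells carried numbers of 2 digits and are described separately. Ranges and medians by chemical are over all wells with 1-digit numbers, whose mix of populations differs between chemicals. Fold changes come only from the populations in each fit, so they need not match the medians. Totals ran from 692446 to 1895735 counts per well, with means of 1427513 under DMSO, 1290086 under CSC, 1213795 under BaP and 1180450 under NNK. The chemicals were laid out by plate row and the populations by plate column, so a chemical cannot be told apart from its rows. Well barcodes held a mean of 1 G or C base under DMSO, 1.24 under CSC, 4.74 under BaP and 5 under NNK, and the part of this difference in the results was not tested. Under DMSO the targeted gene lay above every control well in all 3 wells of the 4 overexpressing populations and below every control well in both knockouts. Epithelial markers were present, with all 10 of 10 above the count minimum and a summed level from 686 to 1423 CPM (a count as a share of the well total, scaled to parts in 1e6). Among markers of other cells 1 of 6 fibroblast, 2 of 4 leukocyte and 1 of 3 endothelial genes exceeded the minimum, and CD3E, VWF and CDH5 were at 0 in every well. The well NRG1 NNK replicate 2 stood apart, with a mean correlation of 0.919 with its group, and several results are given with and without it.

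NNK was compared with DMSO across the 7 populations that had 3 wells under both, 42 wells in all. Nearly every step of the sterol pathway was higher under NNK. Of 18 sterol enzymes 16 rose, by log2 fold changes from 0.22 to 1.35, and none fell. The median log2 fold change was 0.61 over the sterol enzymes, against -0.01 over all 11349 genes tested. Among the 6 regulators only TMEM97 rose. Of the 10 fatty acid enzymes ACLY and FASN rose and SCD fell, with a median of 0.11 for the group. In total 20 of 34 members passed the threshold of an adjusted p under 0.05 in the limma-voom fit, 19 higher and 1 lower, while 3.07% of all genes tested were higher and 4.15% lower. Without NRG1 NNK replicate 2 the count was 23 of 34, 21 higher and 2 lower, beside 10.2% and 9.74% of all genes. Of the 20 calls 15 passed under every alternative run, and LSS, CYP51A1, HSD17B7, FASN and SCD did not.

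Summed over the 18 sterol enzymes, the level in single wells ran from 1689 to 3896 CPM under DMSO with a median of 2659, and from 2742 to 5504 CPM under NNK with a median of 3895. The same sum had a median of 2914 CPM under BaP and 2591 CPM under CSC. The 10 fatty acid enzymes together had medians of 613 CPM under DMSO, 588 under NNK, 433 under BaP and 552 under CSC. The ranges of the sterol sums overlapped between all 4 chemicals.

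FDPS (hg19 chromosome 1, 155278539 to 155290457) makes farnesyl diphosphate, the last intermediate that sterols share with other isoprenoids. Its level ran from 240.0 to 447.6 CPM under DMSO with a median of 370.4 (n = 24), and from 399.1 to 761.1 CPM under NNK with a median of 550.9 (n = 22). In GFP cells the DMSO wells held 369.3, 382.1 and 410.5 CPM and the NNK wells 657.9, 713.7 and 761.1 CPM. In FAT1 cells, which had the lowest levels, the DMSO wells held 240.0, 267.9 and 263.9 CPM and the NNK wells 399.1, 417.2 and 445.9 CPM. Within each population the NNK wells all exceeded the DMSO wells. The log2 fold change across populations was 0.73 (SE 0.06, limma adjusted p = 4.46e-18), the smallest p of any member.

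MSMO1 (chromosome 4, 166248819 to 166264316), the methylsterol oxidase that starts removal of methyl groups from lanosterol products, ran from 184.1 to 943.0 CPM under DMSO with a median of 462.1, and from 350.7 to 1508 CPM under NNK with a median of 709.5. FAT1 cells held 204.4, 184.1 and 187.5 CPM under DMSO and 355.5, 356.0 and 350.7 CPM under NNK. HCRED cells held 418.4, 450.7 and 470.9 CPM under DMSO and 786.2, 736.8 and 770.5 CPM under NNK. The groups did not overlap in either population, and the fold change across populations was 0.71 on the log2 scale (SE 0.06).

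EBP (chromosome X, 48380187 to 48387104), a sterol isomerase late in the pathway, ran from 164.3 to 421.7 CPM under DMSO with a median of 288.5, and from 283.2 to 593.1 CPM under NNK with a median of 428.9. In NRG1 cells its NNK wells held 399.3, 398.0 and 412.3 CPM against 264.4, 271.1 and 277.2 CPM under DMSO. Replicate 2, the well that stands apart in other genes, held 398.0 CPM of EBP, close to replicate 1, and all 3 NNK wells lay above the DMSO wells. The log2 fold change across populations was 0.64 (SE 0.05).

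FDFT1, the squalene synthase that commits farnesyl diphosphate to sterols, ran from 288.6 to 574.0 CPM under DMSO with a median of 374.9, and from 338.3 to 786.7 CPM under NNK with a median of 517.8. Its log2 fold change was 0.50 (SE 0.05). IDI1, the isopentenyl diphosphate isomerase, had the highest mean CPM of the members, with medians of 621.9 CPM under DMSO and 854.9 CPM under NNK and a log2 fold change of 0.55 (SE 0.06). Both genes separated the NNK from the DMSO wells within each of the 7 populations.

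**Figure D1:**
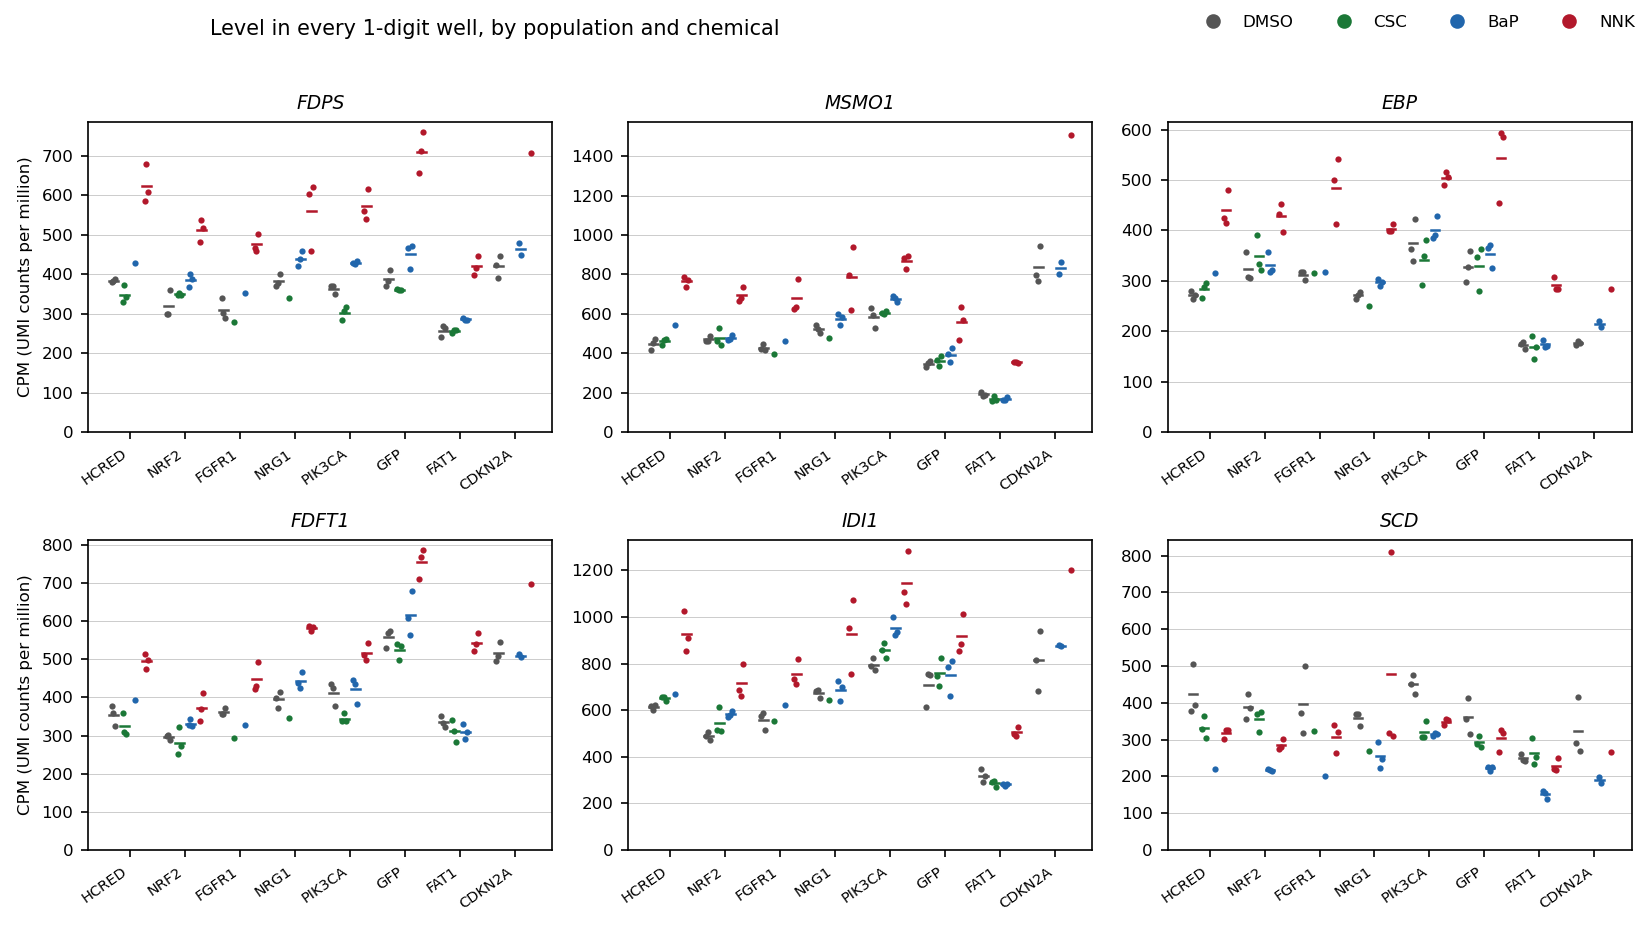
Level of 5 sterol enzymes and the fatty acid desaturase gene SCD in each of the 82 wells, in CPM on linear axes from 0, by population and chemical (points are wells, bars are means). NNK wells of the sterol enzymes lie above the DMSO wells of the same population, SCD is lowest under BaP, and the single NRG1 NNK well at 810.2 CPM of SCD is the one that stands apart.

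The separation was complete for 7 sterol enzymes, ACAT2, IDI1, FDPS, FDFT1, MSMO1, EBP and SC5D, in which every NNK well exceeded every DMSO well within all 7 populations. Only 30 genes of the 11349 tested did so, or 0.264%. MVD, SQLE and NSDHL were separated in 6 populations, for which the share of all genes was not counted. No regulator and no fatty acid enzyme was separated in all 7.

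At the entry of the pathway ACAT2, the thiolase that joins acetyl-CoA units, rose by 0.64 on the log2 scale (SE 0.07). HMGCS1 (chromosome 5, 43287572 to 43313614), the synthase of the mevalonate branch, ran from 22.82 to 83.12 CPM under DMSO with a median of 54.73, and from 45.54 to 166.1 CPM under NNK with a median of 68.75. Its log2 fold change was 0.59 (SE 0.07, limma adjusted p = 2.21e-09). The highest value, 166.1 CPM, came from NRG1 NNK replicate 2, and without that well the log2 fold change was 0.58. In FAT1 cells it rose from 36.19, 27.75 and 31.63 CPM to 59.48, 71.33 and 68.73 CPM, while in HCRED cells the NNK wells at 55.50, 68.76 and 84.78 CPM overlapped the DMSO wells at 62.47, 51.47 and 42.59 CPM.

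The mevalonate kinases were the exceptions among the sterol enzymes. MVK had a log2 fold change of 0.37 (SE 0.17, limma adjusted p = 0.181) and passed the threshold only without NRG1 NNK replicate 2, at 0.44. PMVK, with a mean count of 2.59, had a log2 fold change of 0.01 (SE 0.26), and its low counts gave it the largest error of the sterol enzymes. MVD, the decarboxylase that follows them, had the largest log2 fold change of the members, 1.35 (SE 0.17), from a median of 5.35 CPM under DMSO to 13.1 CPM under NNK. TM7SF2, a sterol reductase, rose by 1.32 (SE 0.20) from a median of 2.80 to 5.81 CPM. These are low counts, and the large folds come with the larger errors.

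Beyond squalene the rises of the other enzymes ran from 0.22 to 0.75 on the log2 scale. SQLE, the squalene epoxidase, rose by 0.48 (SE 0.05) and LSS, which closes the lanosterol rings, by 0.73 (SE 0.14). NSDHL rose by 0.68 (SE 0.08), HSD17B7 by 0.35 (SE 0.09), SC5D by 0.51 (SE 0.06) and DHCR7, which makes cholesterol in the final step of one branch, by 0.75 (SE 0.12). CYP51A1, the lanosterol demethylase, rose least of those that passed, by 0.22 (SE 0.05, limma adjusted p = 0.00538). These values include NRG1 NNK replicate 2, which held 75.94 CPM of DHCR7, 31.87 of LSS and 248.8 of CYP51A1. Replicates 1 and 3 held 27.12 and 26.44 CPM of DHCR7, 12.88 and 9.92 of LSS, and 115.3 and 141.3 of CYP51A1.

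Of the genes that regulate or carry sterols, TMEM97 (chromosome 17, 26646226 to 26655711), a membrane protein of sterol handling, rose by 0.51 (SE 0.07, limma adjusted p = 1.15e-08). It ran from 39.45 to 89.65 CPM under DMSO with a median of 51.2, and from 50.98 to 106.2 CPM under NNK with a median of 72.0. INSIG1, itself a known SREBP target, had medians of 26.1 CPM under DMSO and 28.2 CPM under NNK and a log2 fold change of 0.20 (SE 0.10) that did not pass. Its highest NNK value, 86.11 CPM, was again NRG1 NNK replicate 2, and its highest DMSO value, 86.41 CPM, was CDKN2A DMSO replicate 2. SREBF1 ran from 1.34 to 14.27 CPM under DMSO and from 0.72 to 7.68 CPM under NNK, with a log2 fold change of 0.01 (SE 0.22). SREBF2 had a count in 50 of the 82 wells, a median of 0.84 CPM under DMSO and 0.89 CPM under NNK, and a log2 fold change of 0.12 (SE 0.32), so that a change was not detectable at this depth. SCAP at 0.39 (SE 0.22) and STARD4, a soluble sterol carrier, at 0.22 (SE 0.10) did not pass. STARD4 did without NRG1 NNK replicate 2, at 0.27.

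In the fatty acid branch ACLY, which supplies cytosolic acetyl-CoA from citrate to both pathways, rose by 0.66 (SE 0.09, limma adjusted p = 4.17e-09), from a median of 36.9 to 48.5 CPM. NRG1 NNK replicate 2 held 108.5 CPM of ACLY, against 52.2 and 62.8 CPM in replicates 1 and 3. FASN, the fatty acid synthase, ran from 3.66 to 15.84 CPM under DMSO with a median of 7.76, and from 4.89 to 27.80 CPM under NNK with a median of 9.60. Its log2 fold change was 0.44 (SE 0.14, limma adjusted p = 0.0367). The value of 27.80 CPM is NRG1 NNK replicate 2, and without that well FASN had a log2 fold change of 0.36 (adjusted p = 0.051). SCD, which makes monounsaturated from saturated fatty acids, fell by 0.18 on the log2 scale (SE 0.05, limma adjusted p = 0.0177), and by 0.23 without that well. ACACA, the carboxylase that commits acetyl-CoA to fatty acids, had a log2 fold change of -0.27 (SE 0.12) and passed the threshold only without that well, at -0.37. ELOVL5 likewise passed only without it, at 0.14. The log2 fold changes of ACSS2, ELOVL6, FADS1, FADS2 and LPIN1 ran from -0.10 to 0.40 and did not pass.

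**Figure D2:**
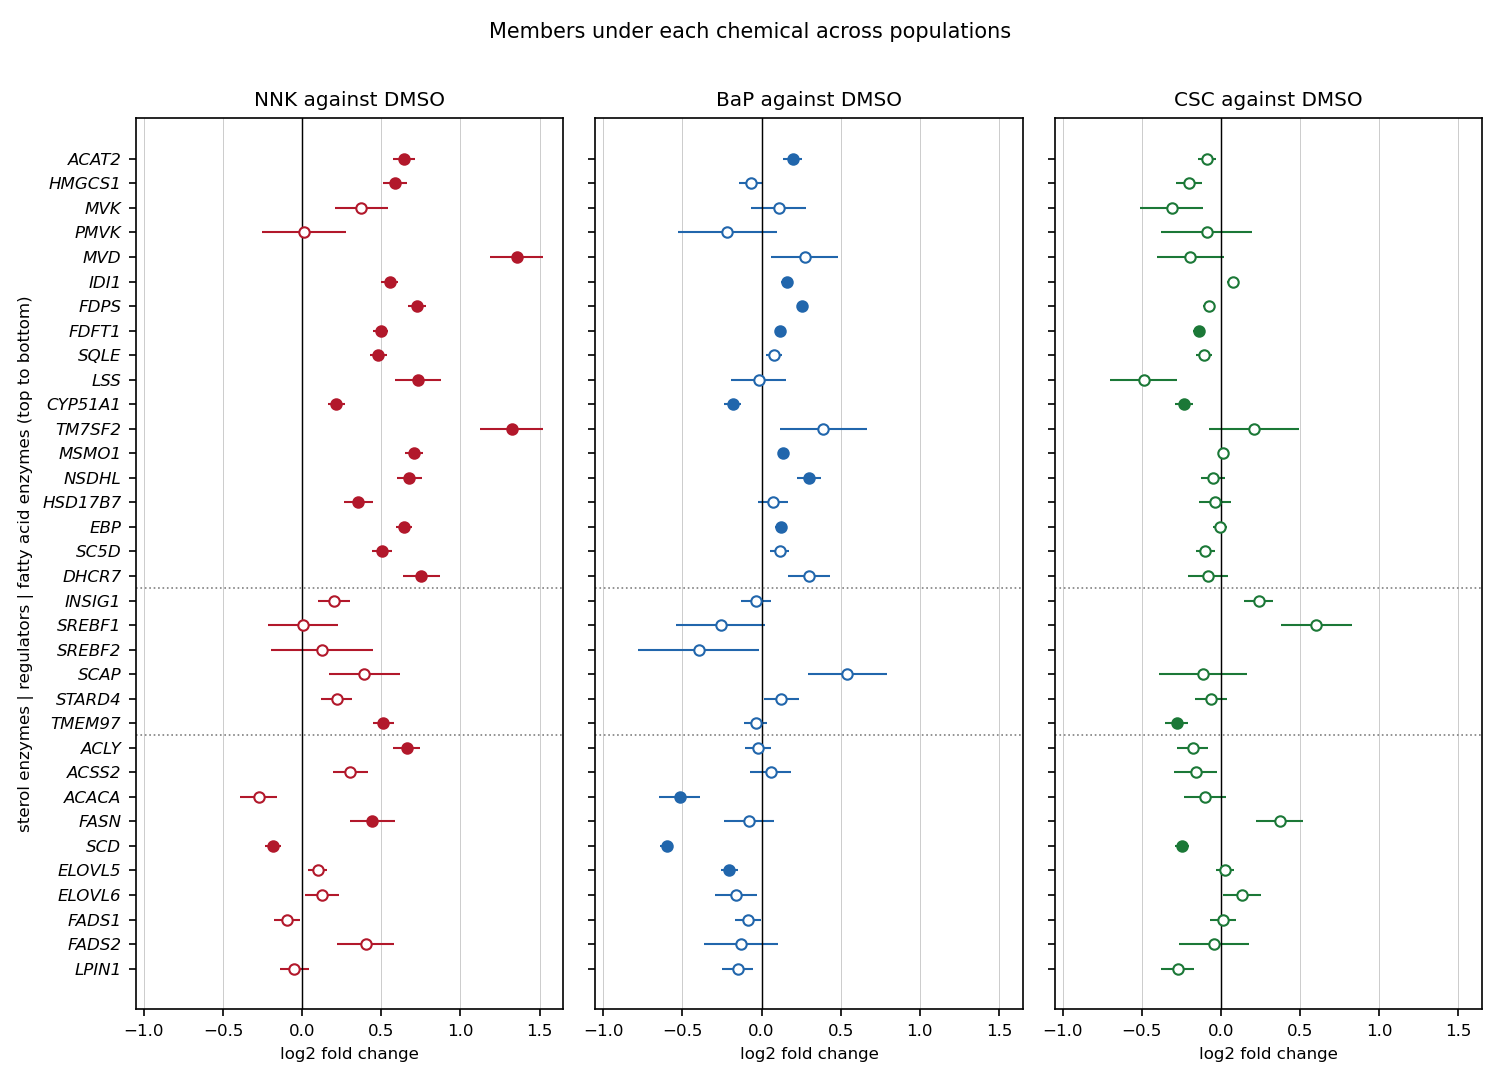
Log2 fold change of each member against DMSO across populations, with its standard error, for NNK, BaP and CSC (filled points passed an adjusted p of 0.05, open points did not, and SREBF2 was below the count minimum for CSC). The sterol enzymes lie right of 0 under NNK, nearer 0 under BaP, and at or left of 0 under CSC apart from 3 of them, while SCD lies left of 0 in all 3 panels.

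Promoter sequence was examined because the sterol enzymes moved together. RefSeq promoters (build GRCh38.p14) matched 30 of the 34 members, and no entry was used for ACAT2, FDFT1, SQLE and FASN. In the 250 bases before the start site, both strands, the sterol regulatory element core TCACNCCAC was held by 1 of 30 members, SREBF2, against 0.875% of 27305 promoters. The CCAAT box, bound by NF-Y, was held by 20 of 30 members and 12 of 15 sterol enzymes, against 33% of all promoters. CYP51A1 and IDI1, which rose under NNK, and PMVK, which did not, lacked it. MVK, which did not pass with all wells, held it. The GC box GGGCGG was held by 27 of 30 members and 14 of 15 sterol enzymes, against 42.3%. All promoters include those of genes below the count minimum, while every member passed it. The shares among genes above the minimum were not counted. A match is a description of letters and not a site shown to be used, and the core searched here is a single strict form of an element that varies.
The 140 bases before the start site follow, 5′ to 3′, for 5 sterol enzymes that rose under NNK in every alternative run and for SREBF2, the one member with the core, with the CCAAT box on either strand in capitals and, in SREBF2, also the sterol regulatory element core.
FDPS, chr1:155308726-155308865, plus strand: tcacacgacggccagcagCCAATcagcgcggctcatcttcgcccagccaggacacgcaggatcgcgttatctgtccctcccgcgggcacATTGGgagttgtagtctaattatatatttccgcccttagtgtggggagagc
EBP, chrX:48521668-48521807, plus strand: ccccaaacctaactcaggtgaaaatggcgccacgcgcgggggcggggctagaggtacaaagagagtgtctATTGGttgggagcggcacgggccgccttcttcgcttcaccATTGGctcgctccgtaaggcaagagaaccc
MSMO1, chr4:165327529-165327668, plus strand: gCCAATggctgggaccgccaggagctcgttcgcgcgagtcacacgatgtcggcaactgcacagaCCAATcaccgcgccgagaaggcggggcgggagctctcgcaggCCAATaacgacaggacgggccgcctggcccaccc
HMGCS1, chr5:43313413-43313552, minus strand: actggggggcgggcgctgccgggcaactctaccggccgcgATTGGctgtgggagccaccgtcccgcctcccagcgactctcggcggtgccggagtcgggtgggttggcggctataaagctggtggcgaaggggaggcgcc
IDI1, chr10:1056705-1056844, minus strand: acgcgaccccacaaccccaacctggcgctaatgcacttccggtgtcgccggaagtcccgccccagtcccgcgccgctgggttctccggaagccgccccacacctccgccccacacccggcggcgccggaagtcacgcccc
SREBF2, chr22:41832965-41833104, plus strand: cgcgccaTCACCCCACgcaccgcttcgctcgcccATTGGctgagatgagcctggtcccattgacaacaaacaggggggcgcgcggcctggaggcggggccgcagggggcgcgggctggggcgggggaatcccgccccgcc
IDI1 is shown as a sterol enzyme with no CCAAT box in these letters that rose beside those that hold 1 to 3 of them. A single start site per gene was searched. Other start sites of IDI1 were not examined, so the lack of a box holds only for the start used.

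BaP was compared with DMSO across 5 populations, 30 wells in all, and the sterol and fatty acid branches had medians of opposite sign. Of 18 sterol enzymes 7 rose and 1 fell, of the 10 fatty acid enzymes 3 fell and none rose, and no regulator passed. The 11 members called compare with 5.04% of all genes higher and 4.12% lower. The median log2 fold change was 0.12 for the sterol and -0.14 for the fatty acid enzymes, against 0.01 for all 11306 genes. The 3 comparisons with DMSO share their DMSO wells.

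SCD (hg19 chromosome 10, 102106990 to 102124583) had the largest and firmest change under BaP. It ran from 242.3 to 505.2 CPM under DMSO with a median of 370.2 (n = 24), and from 139.3 to 318.5 CPM under BaP with a median of 220.2 (n = 19). In NRF2 cells the DMSO wells held 354.9, 423.9 and 385.0 CPM and the BaP wells 220.6, 217.5 and 214.8 CPM. In FAT1 cells they held 260.3, 244.7 and 242.3 CPM and 160.9, 153.6 and 139.3 CPM. In each of the 5 populations every BaP well lay below every DMSO well, which 0.292% of all genes did. The log2 fold change was -0.60 (SE 0.04, limma adjusted p = 2.64e-20).

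The other falls were in ACACA, with a log2 fold change of -0.52 (SE 0.13), and in the elongase ELOVL5, at -0.20 (SE 0.05). ACACA went from a median of 16.4 CPM under DMSO to 10.8 CPM under BaP. FASN, the fatty acid synthase, had a log2 fold change of -0.08 (SE 0.16) and ACLY of -0.02 (SE 0.08), and neither passed.

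FDPS under BaP ran from 283.5 to 480.7 CPM with a median of 426.7, and every BaP well exceeded the DMSO wells in all 5 populations, as did 0.433% of all genes. Its log2 fold change was 0.25 (SE 0.03, limma adjusted p = 1.1e-08), and under NNK it was 0.73. IDI1 rose by 0.16 (SE 0.03), MSMO1 by 0.14 (SE 0.03), NSDHL by 0.30 (SE 0.07), ACAT2 by 0.20 (SE 0.06), FDFT1 by 0.12 (SE 0.03) and EBP by 0.12 (SE 0.04). IDI1 had a median of 668.7 CPM under BaP and MSMO1 of 492.3 CPM. CYP51A1 fell by 0.18 (SE 0.06). Of the 11 calls FDPS and SCD alone passed under every alternative run.

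CSC was compared with DMSO across 5 populations, also 30 wells. No member rose. SCD, CYP51A1, TMEM97 and FDFT1 fell, 4 of 33 members tested, beside 2.95% of all genes higher and 2.86% lower. SCD passed under every alternative run, and the other 3 did not.

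SCD under CSC ran from 233.5 to 375.1 CPM with a median of 307.9 (n = 17), a log2 fold change of -0.24 (SE 0.04, limma adjusted p = 2.06e-05). PIK3CA cells held 307.9, 307.6 and 350.2 CPM under CSC and 451.1, 475.9 and 424.0 CPM under DMSO, while in FAT1 cells the CSC wells at 303.6, 233.5 and 253.7 CPM overlapped the DMSO wells. FDFT1 went from a median of 374.9 to 337.3 CPM, a log2 fold change of -0.14 (SE 0.03). CYP51A1 went from 106.3 to 92.1 CPM, at -0.23 (SE 0.06), and TMEM97 from 51.2 to 39.4 CPM, at -0.28 (SE 0.07). These medians include CDKN2A cells under DMSO, at a mean of 75.8 CPM of TMEM97, but no CDKN2A well under CSC. Within populations the CSC wells lay wholly below the DMSO wells in 1 of 5 populations for FDFT1 and in 2 of 5 for CYP51A1 and for TMEM97. How many of all genes were separated as often was not counted, so these counts are only a description.

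SREBF1, the gene of the factor that mainly drives fatty acid enzymes, ran from 2.63 to 8.08 CPM under CSC with a median of 4.85, against 3.18 CPM under DMSO. Its log2 fold change of 0.60 (SE 0.23) did not pass against DMSO. FASN at 0.37 (SE 0.15), INSIG1 at 0.24 (SE 0.09) and HMGCS1 at -0.20 (SE 0.08) did not pass either. The summed leukocyte markers ran from 16.16 to 43.99 CPM under CSC and from 9.23 to 29.2 CPM under DMSO. CD3E was at 0, and PTPRC was at 0 in every CSC well. In HCRED cells CD68 held 25.25, 30.84 and 34.14 CPM under CSC and 12.84, 13.24 and 20.14 CPM under DMSO. LYZ there held 3.99, 3.76 and 6.13 CPM under CSC and 7.70, 5.88 and 2.32 CPM under DMSO. The part of these markers in the results was not tested.

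The chemicals were also compared directly, without the DMSO wells. NNK exceeded BaP in 18 members and fell below it in none, across 5 populations, where 0.569% of all genes were higher under NNK and 0.427% lower. These were 15 sterol enzymes, TMEM97, ACLY and SCD. The log2 difference was 0.48 for FDPS (SE 0.07), 0.50 for EBP (SE 0.06), 0.82 for ACLY (SE 0.09) and 0.48 for SCD (SE 0.07). Without NRG1 NNK replicate 2 there were 20 such members, beside 3.92% of all genes higher and 1.19% lower, and SCD differed by 0.42. Without the wells numbered replicate 3 there were 9. HSD17B7, MVK and PMVK were the sterol enzymes that did not pass with all wells.

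NNK and CSC differed in 23 members across 5 populations, 21 higher and 2 lower under NNK, beside 7.35% and 4.92% of all genes. The sterol enzymes higher under NNK numbered 17 of 18, all but PMVK, with FDPS at a log2 difference of 0.88 (SE 0.04) and FDFT1 at 0.69 (SE 0.04). Lower under NNK were SREBF1, at -0.81 (SE 0.24), and the desaturase FADS1, at -0.33 (SE 0.09). SCD had a log2 difference of 0.00 (SE 0.04).

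BaP and CSC differed in 12 members across 4 populations, 8 higher and 4 lower under BaP, beside 3% and 1.58% of all genes. The 8 were sterol enzymes, with FDPS at 0.34 (SE 0.04) and FDFT1 at 0.25 (SE 0.04). The 4 were SREBF1 at -1.10 (SE 0.27), SCD at -0.40 (SE 0.06), ACACA at -0.54 (SE 0.16) and ELOVL5 at -0.23 (SE 0.07). SREBF1 thus passed in both direct comparisons with CSC and in none with DMSO. The count was 5 to 7 when a replicate number was left out.

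**Figure D3:**
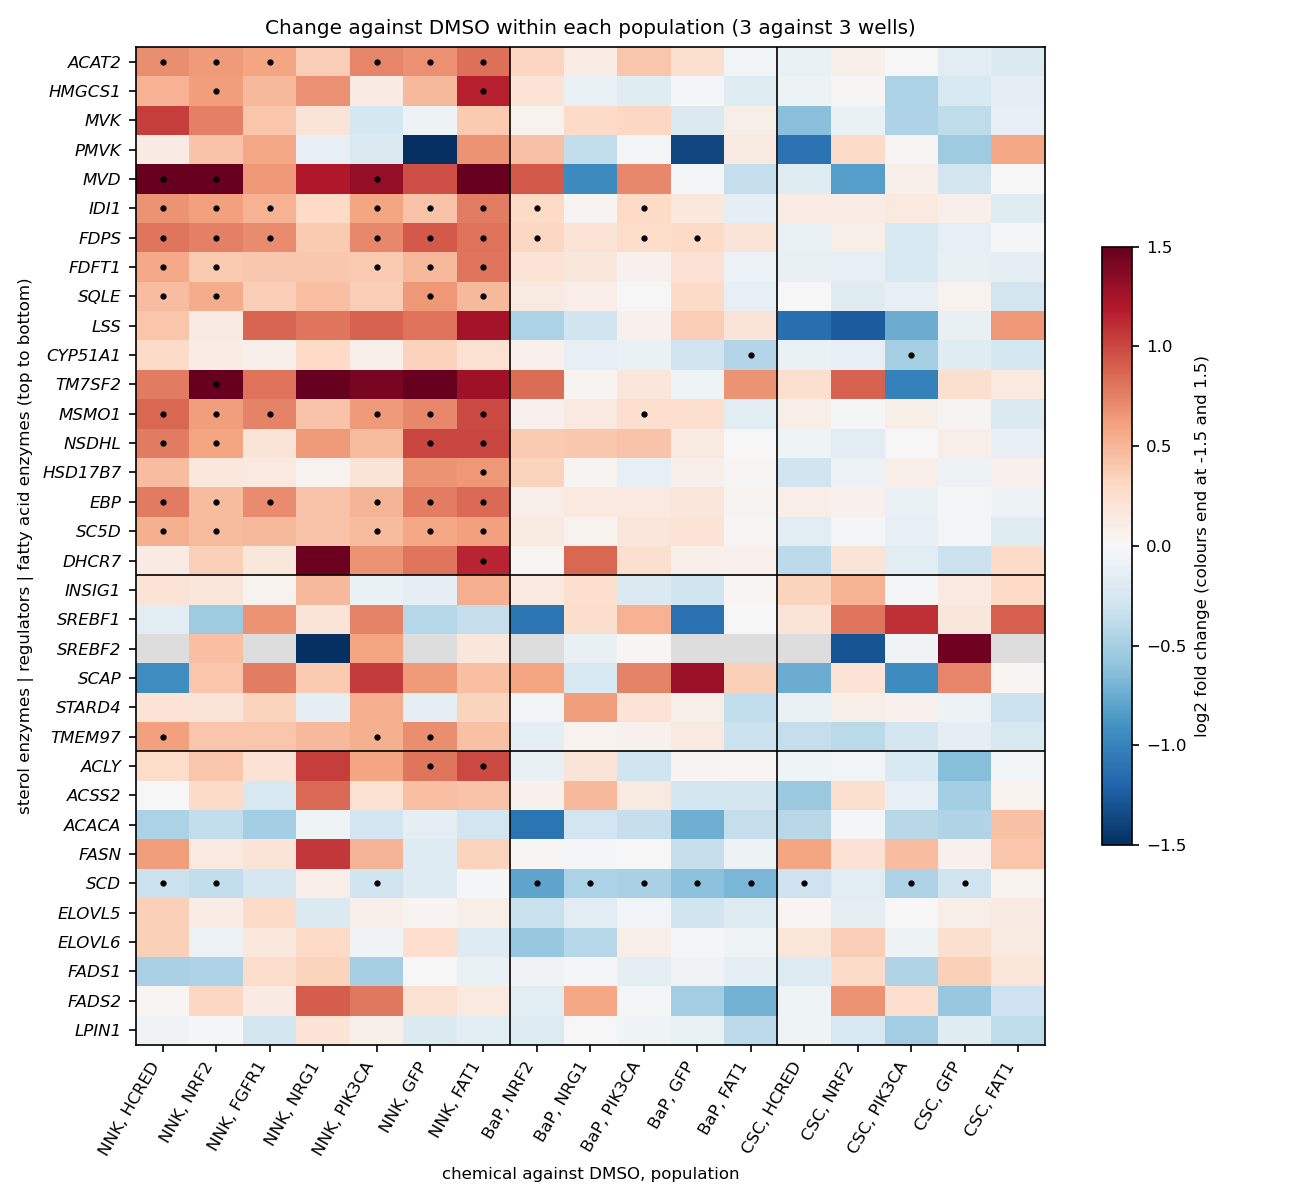
Log2 fold change of each member against DMSO within each population, from separate fits of 3 against 3 wells (dots mark an adjusted p under 0.05, grey cells were below the count minimum, and colours end at -1.5 and 1.5). Most sterol enzymes are red, higher, under NNK in all 7 populations, with MVK and PMVK among the exceptions. CYP51A1 in FGFR1 cells had means of 95.58 CPM under NNK and 98.03 CPM under DMSO. No dot stands in NRG1 cells under NNK, and SCD is blue with a dot in all 5 populations under BaP.

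Within single populations, 12 members passed under NNK in HCRED cells, 13 in NRF2, 5 in FGFR1, 10 in PIK3CA, 11 in GFP and 13 in FAT1 cells. The shares of all genes called in these fits were 2.56%, 1.84%, 0.564%, 1.42%, 0.809% and 3.19%. ACAT2, IDI1, FDPS, MSMO1 and EBP passed in each of these 6 populations. SCD fell in HCRED, NRF2 and PIK3CA cells. In FAT1 cells, where 13 members rose and none fell, HMGCS1 rose by 1.17 (SE 0.15), MSMO1 by 0.98 (SE 0.08) and ACLY by 0.99 (SE 0.15).

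In NRG1 cells no member passed in the limma fit, with 3 wells under NNK, where 0.00866% of all genes did and 9 members had an unadjusted p under 0.05. Without replicate 2, which leaves 2 NNK wells, 14 members rose beside 1.77% of all genes. MSMO1 then rose by 0.78 (SE 0.06), IDI1 by 0.64 (SE 0.05) and FDPS by 0.73 (SE 0.06). Replicate 2 held 458.3 CPM of FDPS against 603.4 and 622.2 CPM in the other wells, and 810.2 CPM of SCD against 318.0 and 309.1 CPM. Its summed level of the 10 fatty acid enzymes, 1334 CPM, was the highest of all 22 NNK wells.

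Under BaP 3 members passed in NRF2 cells, 1 in NRG1, 4 in PIK3CA, 2 in GFP and 2 in FAT1 cells. The shares of all genes called were 2.06%, 0.895%, 1.17%, 1.51% and 1.63%. SCD fell in all 5 populations, by log2 fold changes from -0.79 in NRF2 cells to -0.47 in NRG1 cells. FDPS rose in NRF2, PIK3CA and GFP cells and IDI1 in NRF2 and PIK3CA cells. Under CSC 1 member passed in HCRED cells, none in NRF2, 2 in PIK3CA, 1 in GFP and none in FAT1 cells, beside 1.04%, 1.62%, 1.42%, 1.29% and 0.457% of all genes. SCD made up 3 of these 4 calls, and CYP51A1 in PIK3CA cells, at -0.50 (SE 0.12), was the other. At an unadjusted p under 0.05 there were 4 members in NRF2 and 2 in FAT1 cells.

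Whether the size of a response depended on the population was tested with a moderated F of the population-by-chemical terms, in fits without the replicate number as a block. No member passed for NNK, where 0.0176% of all genes did, and none without NRG1 NNK replicate 2, where 0.0621% did. None passed for BaP or CSC, with 0.106% of all genes in each. At an unadjusted p under 0.05 there were 4 members for NNK with all wells, 8 without that well, 5 for BaP and 4 for CSC. The smallest adjusted p was 0.0986, for IDI1 under BaP. IDI1 rose under BaP in NRF2 and PIK3CA cells, by 0.30 and 0.29, while in FAT1 cells the BaP wells held 284.2, 275.6 and 284.3 CPM, all below the DMSO wells at 349.2, 292.8 and 317.1 CPM. Such opposite separation in at least a pair of populations was seen for 4 members under BaP, 2 under CSC and none under NNK, while 4.14%, 3.7% and 6.29% of all genes showed it.

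The populations differed in these genes before any chemical was added. Under DMSO 21 of 34 members differed between the 8 populations, 12 of 18 sterol enzymes, 3 of 6 regulators and 6 of 10 fatty acid enzymes, beside 39.6% of all genes. Population and plate column go together, and GFP and HCRED cells, the controls, differed from each other in 10.8% of all genes. The 3 members with the smallest adjusted p are described first.

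MSMO1 was highest in CDKN2A cells, at 836 CPM ± 93.8 (SD, n = 3), and lowest in FAT1 cells, at 192 CPM ± 10.9. Between them lay PIK3CA cells at 582 ± 51.0, NRG1 at 523 ± 21.4, NRF2 at 471 ± 15.0, HCRED at 447 ± 26.5, FGFR1 at 428 ± 18.1 and GFP at 346 ± 14.5. The wells of CDKN2A, GFP and FAT1 cells overlapped those of no other population. PIK3CA overlapped NRG1 cells, NRF2 overlapped HCRED cells and HCRED overlapped FGFR1 cells (F = 62.2, limma adjusted p = 8.83e-36).

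SC5D, the desaturase of the late pathway, stood at 224 CPM ± 20.6 in CDKN2A cells, with single wells at 211.4, 213.1 and 248.0 CPM. The other populations ran from 51.8 ± 4.41 in GFP cells to 86.5 ± 4.08 in HCRED cells. CDKN2A cells thus held more than any other well of the plate under DMSO. Against GFP cells the log2 fold change was 1.99 (SE 0.15).

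EBP was low in FAT1 cells, at 173 CPM ± 7.38, and in CDKN2A cells, at 177 CPM ± 3.67, and the wells of these populations overlapped. All other populations lay higher, from 271 ± 6.43 in NRG1 cells to 375 ± 42.6 in PIK3CA cells. In CDKN2A cells MSMO1 and SC5D were therefore high while EBP was low.

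**Figure D4:**
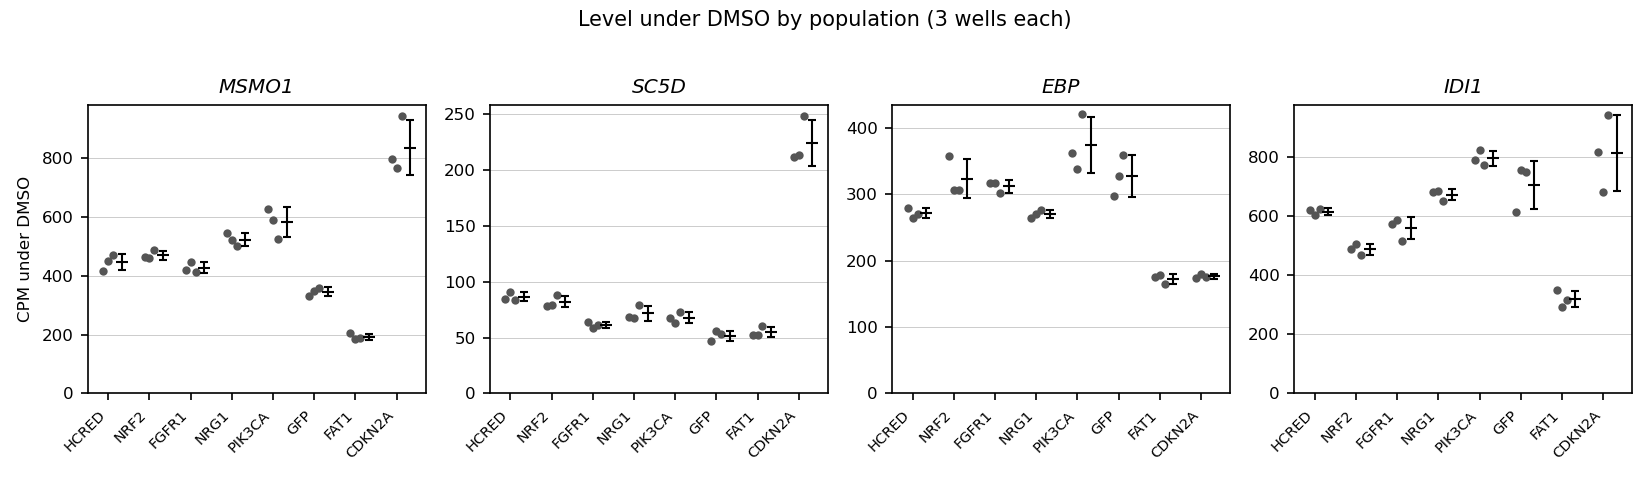
Level of MSMO1, SC5D, EBP and IDI1 under DMSO in the 3 wells of each population, in CPM on axes from 0 (points are wells, bars beside them the mean and SD). FAT1 cells are lowest for MSMO1 and IDI1, and CDKN2A cells are highest for MSMO1 and SC5D and among the lowest for EBP.

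Each population was then set against its control under DMSO. FAT1 cells differed from GFP cells in 10 members, all lower, beside 14.1% of all genes. The median log2 fold change of the sterol enzymes was -0.59. IDI1 went from 706 CPM ± 81.2 to 320 CPM ± 28.3, a log2 fold change of -1.09 (SE 0.07), LSS changed by -1.33 (SE 0.42), EBP by -0.86 (SE 0.09), MSMO1 by -0.80 (SE 0.08) and FDFT1 by -0.68 (SE 0.07). FDPS, HMGCS1, INSIG1, SCD and ELOVL5 were the others.

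CDKN2A cells differed from GFP cells in 13 members, 11 higher and 2 lower, beside 17.9% of all genes. Besides SC5D and MSMO1 the elongase ELOVL6 was higher by 1.37 (SE 0.32), STARD4 by 0.97 (SE 0.23) and DHCR7 by 0.86 (SE 0.24). EBP was lower, at 177 against 328 CPM in GFP cells, and CYP51A1 had a log2 fold change of -0.62 (SE 0.14). The overexpressing populations differed less from HCRED cells. NRF2 cells differed in 3 members, FGFR1 cells in none, NRG1 cells in 3 and PIK3CA cells in 4, beside 4.91%, 0.914%, 3.08% and 5.4% of all genes, and 3 members in FGFR1 cells had an unadjusted p under 0.05. In PIK3CA cells the 4 were sterol enzymes and all were higher, with EBP at 0.51 (SE 0.08), MSMO1 at 0.45 (SE 0.07), IDI1 at 0.43 (SE 0.06) and FDFT1 at 0.28 (SE 0.07). GFP cells differed from HCRED cells in 9 members, beside 10.8% of all genes, with FDFT1 at 0.71 (SE 0.06), INSIG1 at 0.72 (SE 0.19) and SC5D at -0.69 (SE 0.14). A member can thus differ between controls as much as between a control and a targeted population.

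Other genes of the pathway were taken from lists drawn up beside the members, also with earlier results of these data known. Of 10 further genes of sterol synthesis and SREBP processing, 2 rose under NNK, 1 rose under BaP and 1 fell under CSC. Of all genes 3.07% rose under NNK, 5.04% rose under BaP and 2.86% fell under CSC, so a single gene is no result about the list. C14orf1, also called ERG28, thought to tether enzymes that remove sterol methyl groups, passed in all 3. Its log2 fold change was 0.68 under NNK (SE 0.06, limma adjusted p = 3.32e-17), 0.15 under BaP (SE 0.03) and -0.15 under CSC (SE 0.04).

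Of 14 genes of sterol uptake, transport, efflux and esterification, 2 rose and 2 fell under NNK, 1 rose and 3 fell under BaP, and 3 rose under CSC. The shares of all genes higher and lower in these fits were 3.07% and 4.15% under NNK, 5.04% and 4.12% under BaP, and 2.95% and 2.86% under CSC. ABCA1, the sterol efflux transporter and a target of liver X receptors, fell under NNK by 1.63 on the log2 scale (SE 0.25) and under BaP by 1.71 (SE 0.31), and rose under CSC by 1.88 (SE 0.20). Its counts are low. In NRF2 cells the DMSO wells held 2.36, 2.72 and 2.11 CPM, the CSC wells 12.33, 12.80 and 13.92 CPM, the BaP wells 0.77, 0.80 and 0 CPM and the NNK wells 2.44, 0.68 and 0.74 CPM. CSC and DMSO wells did not overlap there, while NNK and DMSO wells did.

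MYLIP, a ubiquitin ligase induced by liver X receptors that lowers sterol uptake, fell under NNK by 1.53 (SE 0.23, limma adjusted p = 5.5e-07) and under BaP by 0.79 (SE 0.23). In FAT1 cells it went from 8.89, 6.80 and 3.86 CPM under DMSO to 0, 0.72 and 2.35 CPM under NNK. Under CSC the same FAT1 cells held 5.74, 5.15 and 4.22 CPM of MYLIP, within the range of their DMSO wells. PIK3CA cells held 3.51, 3.91 and 6.30 CPM of MYLIP under CSC and 3.31, 4.03 and 3.80 CPM under DMSO, which overlap. ABCG1, another efflux transporter, rose under CSC by 0.84 (SE 0.23). LIPA, the lysosomal lipase, rose under NNK by 0.22 (SE 0.06), NPC2, which moves cholesterol out of lysosomes, rose under BaP by 0.08 (SE 0.02), and the lipoprotein receptor VLDLR fell under BaP by 1.11 (SE 0.35).

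**Figure D5:**
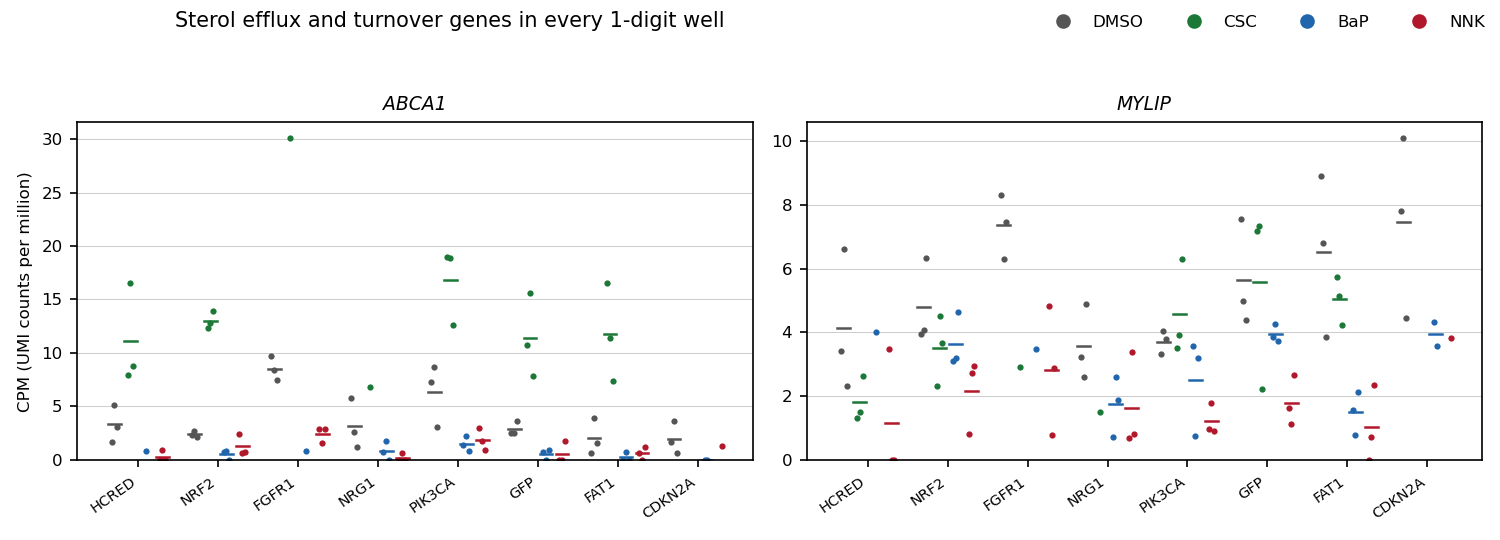
Level of ABCA1 and MYLIP in each of the 82 wells, in CPM on linear axes from 0, by population and chemical (points are wells, bars are means). ABCA1 is highest in the CSC wells and at or near 0 in most BaP wells, and MYLIP is lower under NNK than under DMSO in most wells.

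Of the further fatty acid and glycerolipid enzymes with enough counts, 19 in each comparison, 1 rose under NNK, 1 rose and 1 fell under BaP, and 2 rose under CSC. For NNK and BaP these counts are near the shares of all genes called, 3.07% higher under NNK and 5.04% higher and 4.12% lower under BaP, and for CSC 2.95% of all genes were higher. ACSL1, which activates long-chain fatty acids, rose under all 3 chemicals, by 0.31 (SE 0.08) under NNK, 0.29 (SE 0.09) under BaP and 0.38 (SE 0.09) under CSC. ACSL4, of the same family, fell under BaP by 0.37 (SE 0.12), and the fatty acid carrier FABP5 rose under CSC by 0.14 (SE 0.04).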

How the data were processed

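UMI counts per gene were deposited by the authors, 1 table per well, as raw counts with no normalization. Reads had been placed on RefSeq transcripts of hg19 with BWA 0.7.10 per the labels and the study's methods, and each UMI matching a single gene counted once, so genes with near-identical copies are uncertain. The members and the other lists were chosen with earlier results of these data known. Wells with 2-digit replicate numbers (13 in 6 groups) were left out of the main fits. Counts were fitted in R 4.3.3 with limma 3.58.1, voom weights and TMM factors from edgeR 4.0.16, over genes with a mean count above 1 in the wells compared, with population as a covariate, Benjamini-Hochberg adjustment over all genes tested and a threshold of 0.05, two-sided. Alternatives included DESeq2 1.42.0 and edgeR's quasi-likelihood test. The fits were tested on simulated data. The simulated wells shared a single mean profile, apart from changes planted in genes of higher counts. Changes in genes of few counts and wells that stand apart were not covered. The study calls the replicates biological. Whether each well was grown as a separate culture is not given in the sources used here, so p-values set a change against the variation between these wells only. In the fits across populations that variation also holds differences in response between populations. Values in every well were given for the 4 members with the smallest adjusted p under each chemical, the 3 with the smallest over populations, and HMGCS1, INSIG1, SREBF1, SREBF2, FASN and SCD. Other pathway genes were named where they passed, and 3 genes that the rule names are not reported here. Positions came from GENCODE on hg19 and promoters from RefSeq on GRCh38.p14.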

Additional observations from a re-analysis of the deposited data

Results flagged for a closer look

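For 4 members under BaP and 2 under CSC every treated well lay above every DMSO well in one population and below in another, as it did for 4.14% and 3.7% of all genes. The population-by-chemical test without a replicate block passed for none of them. Within single populations IDI1 passed in NRF2 and PIK3CA cells and MSMO1 in PIK3CA cells, all higher, and none of the lower values passed. Under BaP, IDI1 had log2 fold changes of 0.30 in NRF2 and 0.29 in PIK3CA cells and -0.15 in FAT1 cells. MSMO1 had 0.25 in PIK3CA and -0.17 in FAT1 cells, SQLE 0.28 in GFP and -0.13 in FAT1 cells, and HSD17B7 0.33 in NRF2 and -0.13 in PIK3CA cells. Under CSC, ACACA had 0.44 in FAT1, -0.45 in GFP and -0.41 in PIK3CA cells, and FADS1 had 0.36 in GFP and -0.46 in PIK3CA cells.

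The 13 wells whose replicate numbers have 2 digits were kept out of the fits, and several members called under NNK or BaP lay above the DMSO wells of their population there. In the 2 CDKN2A NNK wells of this kind FDPS averaged 790 CPM, EBP 291, MSMO1 1411 and FDFT1 703 CPM, all above the 3 DMSO wells, which averaged 421, 177, 836 and 516 CPM. Of all genes 8.3% lay above and 26.7% below in that group. In the 2 FGFR1 BaP wells FDPS averaged 357 and MSMO1 480 CPM, against 310 and 428 CPM in the DMSO wells, while IDI1, at 568 to 640.1 CPM, overlapped the DMSO wells at 516 to 587.3 CPM. Of all genes 8.24% lay above and 21.9% below. In the 2 HCRED BaP wells FDPS averaged 401, IDI1 631 and MSMO1 484 CPM, against 384, 616 and 447 CPM, and 9.07% of all genes lay above and 18.2% below.

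SCD lay below its DMSO wells in 2 of 2 such BaP groups, and under CSC 6 of 12 gene and group combinations lay below and 6 overlapped. Of all genes 10.8% lay below in CDKN2A, 13.8% in FGFR1 and 11.8% in NRG1 cells under CSC.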

How the results depend on the processing

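For the comparisons with DMSO across populations, no member fold change that passed in the main or an alternative run changed sign between them. The side of the threshold was kept 1897 times, and the call was lost 82 times and gained 21 times. Sign changes of members that passed in neither run were not counted. Of the counts of members called, 156 stayed within 1.5 times the reported count and 28 moved, for which the cause was not tested beyond the fewer wells or counts that some alternatives hold. BaP against CSC fell from 12 members to 5 in a single fit of all groups, 5 with totals thinned to the smallest, 6 without GFP or without NRF2 cells, and 5 to 7 without 1 replicate number. BaP against DMSO fell from 11 to 5 in the single fit, 7 when thinned, 6 without GFP, 7 without NRF2, 6 without PIK3CA cells and 5 to 8 without 1 replicate number. CSC against DMSO fell from 4 to 2 when thinned, 2 without PIK3CA cells and 2 to 3 without 1 replicate number. Summed within populations, BaP calls fell from 12 to 5 in the single fit and ran from 6 to 12 without 1 replicate number, and CSC calls fell from 4 to 2 with DESeq2, 1 in the single fit and 1 to 2 without 1 replicate number. NNK against BaP, 18 members, ran from 9 (without replicate 3) to 20 (without NRG1 NNK replicate 2), and NNK against DMSO, 20 members, from 15 to 23. Same-numbered wells did not deviate together: in 0 of 17 sets was every pair's correlation over 0.1, with a mean of 0.016. With the replicate number as a block 1 member passed for a population difference under BaP and 1 under CSC, against 0 without it, and the NNK count stayed at 20. Genes of few counts, such as SREBF2 and PMVK, are limited by depth.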
